A study of Mus musculus with 8 samples.

Results

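The 8 genes described here encode amino acid transporters of the plasma membrane: Slc1a5, Slc3a2, Slc7a5, Slc7a7, Slc7a8, Slc7a11, Slc38a1 and Slc38a2. They were taken by gene symbol, and all 8 were found, each on 1 transcript cluster, among 19505 genes on the array. All 8 were also among the 10871 genes that counted as measured, which means that the highest of a gene's 8 values reached the 50th percentile of the whole table. The cells came from bone marrow of C57BL6/J mice and had been cultured in 4 ways. PSS1-LMS cells received M-CSF at 50 ng/ml, RANKL at 100 ng/ml and, a day after treatment began, a retrovirus carrying mutant PSS1. PSS1-WT cells received the same factors and a retrovirus carrying wild-type PSS1, M-CSF+RANKL cells received both factors, and M-CSF cells received M-CSF alone. PSS1 is phosphatidylserine synthase 1, the product of Ptdss1. The labels do not state which mutation PSS1-LMS carried, the promoter of the virus, the number of animals, or whether cultures without PSS1 received an empty virus. RNA was taken on day 6 and on day 3 of treatment, and each of the 8 combinations of culture and day was measured on 1 array.

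Amino acid transporters of this kind work as pairs and exchangers. Slc3a2 encodes CD98, the heavy chain that carries several light chains to the cell surface: Slc7a5 (LAT1) and Slc7a8 (LAT2), which exchange large neutral amino acids such as leucine, Slc7a7 (y+LAT1), which exports cationic amino acids such as arginine against neutral ones, and Slc7a11 (xCT), which imports cystine against glutamate. Slc1a5 (ASCT2) exchanges glutamine and other small neutral amino acids with sodium, and Slc38a1 (SNAT1) and Slc38a2 (SNAT2) take up glutamine and alanine with sodium. Leucine and glutamine that enter this way feed the mTORC1 kinase and the synthesis of glutamate, nucleotides and protein, and amino acid shortage is known to raise several of these genes through the transcription factor Atf4. In marrow cultures M-CSF is the growth factor of the macrophage lineage, and adding RANKL yields osteoclasts, large cells that resorb bone. In humans, loss of SLC7A7 causes lysinuric protein intolerance, in which macrophages are among the affected cells.

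Promoter sequences were looked up because amino acid response elements are known to control part of this family. RefSeq windows on the mouse build GRCm38.p6, each 250 bases before and 50 bases after a transcription start, were found for 5 of the 8 genes (Slc3a2, Slc7a7, Slc7a8, Slc7a11 and Slc38a2), 9 windows in all. Shown are the bases before the start for the pair of genes that fell with RANKL and for Slc7a11, all on the minus strand and written 5′ to 3′. They are Slc7a7 at chr14:54417937-54418194, its first of 5 windows and extended to the end of a match across the start, Slc7a8 at chr14:54781887-54782136, and Slc7a11 at chr3:50443614-50443863. Capitals mark matches to TGATGNAAN, the core of the response element bound by Atf4 with C/EBP factors, on either strand.
Slc7a7: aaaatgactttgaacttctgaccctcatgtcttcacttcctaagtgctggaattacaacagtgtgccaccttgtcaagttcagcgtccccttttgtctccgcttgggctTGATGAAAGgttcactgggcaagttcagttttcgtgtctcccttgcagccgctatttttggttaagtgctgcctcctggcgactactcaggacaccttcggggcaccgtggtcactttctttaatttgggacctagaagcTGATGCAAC
Slc7a8: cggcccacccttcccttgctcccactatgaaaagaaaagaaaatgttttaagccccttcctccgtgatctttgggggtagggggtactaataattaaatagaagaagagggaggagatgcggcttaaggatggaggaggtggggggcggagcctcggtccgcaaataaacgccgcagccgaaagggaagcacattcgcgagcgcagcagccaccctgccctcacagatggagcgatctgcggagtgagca
Slc7a11: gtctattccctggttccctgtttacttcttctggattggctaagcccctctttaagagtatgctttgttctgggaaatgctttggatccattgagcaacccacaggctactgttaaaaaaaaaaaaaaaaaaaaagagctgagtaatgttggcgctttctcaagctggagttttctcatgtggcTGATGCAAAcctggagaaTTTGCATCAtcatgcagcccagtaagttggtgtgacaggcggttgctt

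The Slc7a11 promoter held 2 matches to TGATGNAAN, one on each strand, at positions -66 to -58 and -48 to -40 with the start counted as 0. The Slc7a7 window held 2 on the plus strand, at -141 to -133 and -1 to 7, and the site at -1 also lies in another of its windows. No match was found in the windows of Slc3a2, Slc7a8 and Slc38a2. Of all 32851 promoter windows in the table, 3.954% held this motif. TGACNNNGC, the core of the antioxidant response element, occurred in 1 of the 9 windows, that of Slc38a2 at -27 to -19, and in 12.39% of all windows. GAGGAAGT, a PU.1 motif, and TGACTCA, an AP-1 motif, were in none of the 9 windows, and in 3.202% and 5.202% of all windows. A match is a run of letters and was not tested for binding.

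Values below are log2 signals as deposited, so a difference of 1 is 2-fold, and differences are taken between arrays for 1 gene at a time. Signals summed over a marker list are a description in which bright probes weigh most. The array carries 23 background probe sets without a mouse target, and the brightest of them was at 5.54 to 7.13, highest on the M-CSF array of day 6. A signal that does not exceed this value of its own array is called within background. Where 1 side of a comparison lies within background, its size is written "at least", counted from that limit. In the 6 arrays with RANKL all 10 osteoclast markers lay above background, among them Ctsk and Acp5, against 1 of 10 in both M-CSF arrays. Of 10 macrophage markers 7 were above background in all 6 arrays with RANKL, against 10 in both M-CSF arrays. No B cell or stromal marker exceeded the limit of its own array. The erythroid marker Slc4a1 did on 5 arrays, at no more than 6.54, and the T cell marker Cd4 on 6, with its highest signal of 8.37 on the M-CSF array of day 6. Ptdss1 was at 17.50 to 18.91 in the 4 arrays of PSS1 cultures and 9.56 to 10.36 in the other 4, as the labels state.

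Of the 8 transporters, Slc1a5 rose with RANKL and Slc7a8 and Slc7a7 fell, while the other 5 did not pass the test. The largest change was in Slc1a5, which was 50.7-fold higher with RANKL on the mean of both days, and it ranked 67th highest among the 10871 measured genes. Slc7a8 moved nearly as far the other way, 36.8-fold lower, and ranked 90th lowest. The test was limma on the difference M-CSF+RANKL minus M-CSF averaged over both days, with p-values adjusted by the Benjamini-Hochberg method over all measured genes and a threshold of 0.05. With 1 array per culture and day, its error measures how far the differences between cultures changed from one day to the other, not spread over animals or repeat cultures. In bulk RNA, fewer cells of a type and less RNA per cell cannot be told apart.

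Slc1a5, the glutamine exchanger, had a signal on day 6 of 13.35 with PSS1-LMS, 13.81 with PSS1-WT and 14.17 with M-CSF+RANKL, against 8.05 with M-CSF. On day 3 the signals were 14.68, 14.64 and 14.74 in those cultures, against 9.54 with M-CSF. All 6 arrays with RANKL lay far above both M-CSF arrays, with no overlap. The averaged difference was 5.66 ± 0.33 (SE; adjusted p = 2.84e-05), and the 2 days gave 69.7-fold on day 6 and 36.8-fold on day 3. The call held in all 17 alternative analyses, some of which are the same fit under another name.

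The sodium-coupled glutamine carriers Slc38a1 and Slc38a2 differed less. Slc38a2 on day 6 was at 15.75 with PSS1-LMS, 15.78 with PSS1-WT and 15.76 with M-CSF+RANKL, against 14.02 with M-CSF. Its day 3 signals were 16.10, 15.91 and 15.82 in these cultures, against 15.32 with M-CSF. Every array with RANKL was above both M-CSF arrays. The averaged difference of 1.12 ± 0.37 (SE) missed the threshold (adjusted p = 0.0629). It passed in 5 of 17 alternatives, among them the mean of all 3 RANKL cultures against M-CSF (1.18, adjusted p = 0.0197). For Slc38a1 the day 6 signals were 12.79 with PSS1-LMS, 12.56 with PSS1-WT and 12.88 with M-CSF+RANKL, against 11.94 with M-CSF. On day 3 it was at 13.13, 12.98 and 13.004 in the same order, against 13.10 with M-CSF, so the groups overlapped on that day. Its averaged difference was 0.42 ± 0.34 (SE; adjusted p = 0.422).

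Slc3a2, the shared heavy chain, was above background in every culture. On day 6 it stood at 15.30 with PSS1-LMS, 15.49 with PSS1-WT and 15.79 with M-CSF+RANKL, against 16.11 with M-CSF. The day 3 values were 15.77, 15.99 and 15.62, against 17.11 with M-CSF. Both M-CSF arrays were above all 6 arrays with RANKL. The averaged difference of -0.90 ± 0.35 (SE) did not pass (adjusted p = 0.0990).

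The 4 light chains differed in direction. Slc7a8, the neutral amino acid exchanger LAT2, was at 12.50 with PSS1-LMS, 11.06 with PSS1-WT and 11.65 with M-CSF+RANKL on day 6, against 15.86 with M-CSF. On day 3 it was at 12.10, 11.20 and 11.17, against 17.37 with M-CSF. Both M-CSF arrays were far above all 6 arrays with RANKL. The averaged difference was -5.20 ± 0.49 (SE; adjusted p = 0.000220), with 18.4-fold lower signal on day 6 and 73.4-fold lower on day 3, and the call held in all 17 alternatives.

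Slc7a7, the arginine exporter y+LAT1, was at 9.27 with PSS1-LMS, 9.43 with PSS1-WT and 9.86 with M-CSF+RANKL on day 6, against 12.46 with M-CSF. On day 3 the values were 10.16, 10.12 and 10.29, against 11.47 with M-CSF. The groups did not overlap, and the difference fitted over both days was -1.89 ± 0.47 (SE; adjusted p = 0.0202), or 3.71-fold lower with RANKL. The call was lost when the M-CSF+RANKL array of day 6 was left out (-1.78, adjusted p = 0.169) or that of day 3 (-2.01, adjusted p = 0.122).

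Slc7a5, the leucine exchanger LAT1, was at 9.62 with PSS1-LMS, 10.16 with PSS1-WT and 9.59 with M-CSF+RANKL on day 6, against 6.22 with M-CSF, which lay within the background of 7.13 on that array. On day 3 it was at 11.03, 10.98 and 10.67, against 10.22 with M-CSF. The M-CSF culture was lowest on both days, by at least 5.51-fold against M-CSF+RANKL on day 6 and by 1.37-fold on day 3, or at least 2.75-fold on the mean of both. The averaged difference with the signals as deposited was 1.91 ± 0.70 (SE; adjusted p = 0.0854), which did not pass; it passed in 3 of 17 alternatives. Slc7a11, the cystine importer, was dim everywhere. Its day 6 signals were 7.76 with PSS1-LMS, 7.66 with PSS1-WT and 7.38 with M-CSF+RANKL, against 7.08 with M-CSF, within background there. On day 3 it was at 7.16, 7.05 and 6.74, against 7.33 with M-CSF. The averaged difference was -0.15 ± 0.33 (SE; adjusted p = 0.791), and the days differed in sign.

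**Figure D1:**
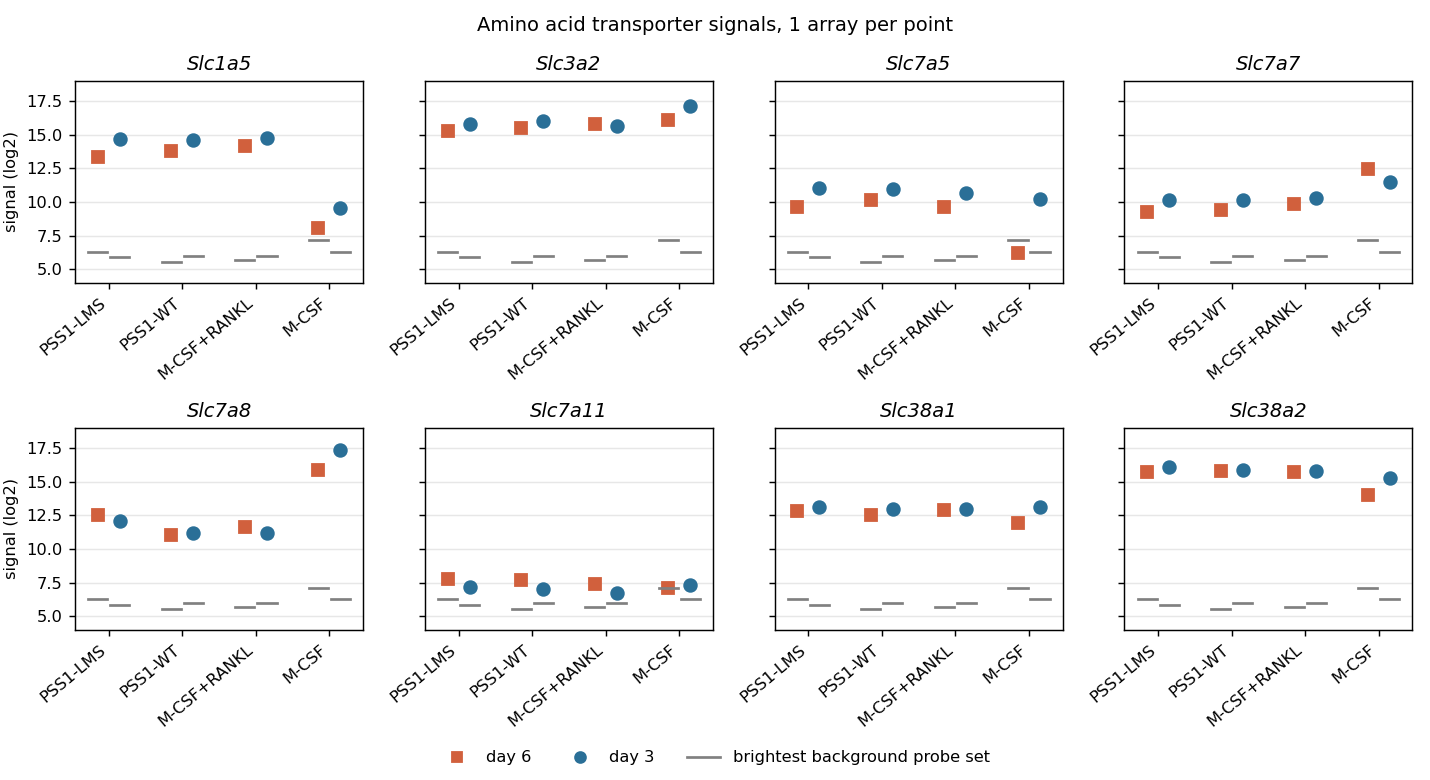
Log2 signal of each transporter on the 8 arrays, 1 point per array, by culture and day, with a grey bar at the brightest background probe set of that array. Slc1a5 is high on the 6 arrays with RANKL and at 8.05 and 9.54 with M-CSF, Slc7a8 is the reverse, and Slc7a5 is within background only on the M-CSF array of day 6.

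Of the 8 genes, 1 was called higher and 2 lower with RANKL, where 14.1% of measured genes were called higher and 12.4% lower. The median difference of the 8 was 0.14, beside 0.03 for all measured genes. The cultures also differed in cell type markers: with RANKL all 10 osteoclast markers rose (median difference 11.92 as fitted, and 8.92 with signals within background set to its limit) and 9 of 10 macrophage markers fell (median -7.98, and -7.58 so limited). All 3 measured dendritic cell markers, H2-Aa, H2-Eb1 and Itgax, were called higher as fitted (median 1.34), but their median was -0.44 so limited. Each was within background on 1 or both M-CSF arrays, H2-Eb1 on 5 of the 8 arrays and Itgax on 7. Pf4, the platelet factor gene in the list of megakaryocyte, mast cell and basophil markers, fell by 8.17 on the log2 scale. The summed macrophage marker signal was 16.41 to 16.77 on the log2 scale in the 6 arrays with RANKL, against 18.41 and 20.01 with M-CSF. With RANKL nearly all of it was Csf1r, at 16.37 to 16.75, the marker that was not called lower. The part of cell type composition in the transporter differences was not tested.

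**Figure D2:**
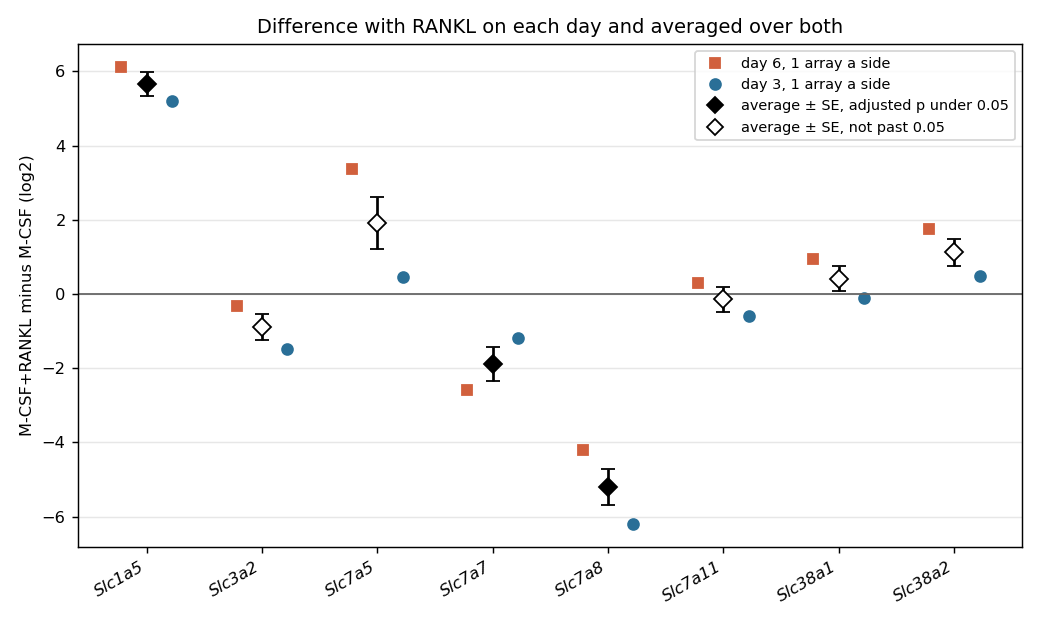
Log2 difference of M-CSF+RANKL minus M-CSF for each transporter: squares for day 6, circles for day 3 and diamonds for the average with its standard error, filled where the adjusted p is under 0.05. Slc1a5 (5.66) lies above 0 and Slc7a7 (-1.89) and Slc7a8 (-5.20) below, and the 2 days are far apart for Slc7a5, whose M-CSF signal of day 6 was within background.

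The RANKL difference was also estimated for each day in a model with a RANKL by day term, and 6 transporters passed for day 6 and 4 for day 3. In this model the 3 cultures with RANKL share 1 change between days, so each estimate also draws on their arrays of the other day and departs a little from that day's own difference. It equals the fit without the M-CSF array of the other day. Both M-CSF arrays are fitted exactly in this model, so its error comes from the 3 cultures with RANKL alone. The M-CSF culture was assumed to vary like them, and each day's calls rest on 1 M-CSF array. For day 6, Slc1a5 (5.95), Slc7a5 (at least 5.51-fold from the measured signals), Slc38a2 (1.68) and Slc38a1 (0.85) were higher with RANKL and Slc7a7 (-2.72) and Slc7a8 (-4.32) lower. Those calls made 4 higher and 2 lower of 8, where 21.6% of measured genes were called higher and 20.2% lower. The largest adjusted p among the 6 was 0.0422, for Slc38a1. For day 3, Slc1a5 (5.37) was called higher and Slc3a2 (-1.27), Slc7a7 (-1.06) and Slc7a8 (-6.08) lower, so 1 higher and 3 lower, where 22.5% of measured genes were called higher and 19.1% lower. The largest adjusted p among these 4 was 0.0154, for Slc7a7.

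Whether the transporters changed differently between days with RANKL than without was then tested directly. Slc7a5, Slc7a8 and Slc7a7, all partners of CD98, passed. The quantity is the difference of day 6 minus day 3 averaged over the 3 cultures with RANKL minus that difference in the M-CSF culture. Since M-CSF has 1 pair of arrays, it was assumed to vary like the others.

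For Slc7a5 the change between days was -1.41 with PSS1-LMS, -0.82 with PSS1-WT and -1.08 with M-CSF+RANKL, against -4.00 with M-CSF, where the later signal was within background and the decline at least 8.50-fold. The difference of changes was 2.89 ± 0.42 with the signals as deposited (SE; adjusted p = 0.000217) and at least 1.98 with that signal set to its background limit. Slc7a8 changed by 0.40 with PSS1-LMS, -0.14 with PSS1-WT and 0.48 with M-CSF+RANKL, against -1.51 with M-CSF, a difference of 1.76 ± 0.42 (SE; adjusted p = 0.00743). Slc7a7 went the other way, -0.89 with PSS1-LMS, -0.69 with PSS1-WT and -0.43 with M-CSF+RANKL, against 0.99 with M-CSF, a difference of -1.66 ± 0.41 (SE; adjusted p = 0.00872). It was the only one of the 8 with a higher signal on day 6 than on day 3 in the M-CSF culture. These 3 calls held in all 11 alternatives, none of which left out an M-CSF array. Leaving out either array of a culture gave the same fit here, so the 11 are not all distinct.

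The remaining 5 had positive differences of changes that did not pass: Slc38a2 with 1.12 (adjusted p = 0.0568), Slc38a1 with 0.87 (adjusted p = 0.136), Slc7a11 with 0.86 (adjusted p = 0.134; 0.82 with its M-CSF signal of day 6 set to background), Slc3a2 with 0.74 (adjusted p = 0.236) and Slc1a5 with 0.58 (adjusted p = 0.364). In total 2 of 8 were called higher and 1 lower, where 9.49% of measured genes were called higher and 12.8% lower. Of 10 macrophage markers 5 passed with a negative difference of changes and none with a positive one, and their summed signal was 20.01 on day 6 and 18.41 on day 3 with M-CSF. Its part in the transporter values was not tested.

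**Figure D3:**
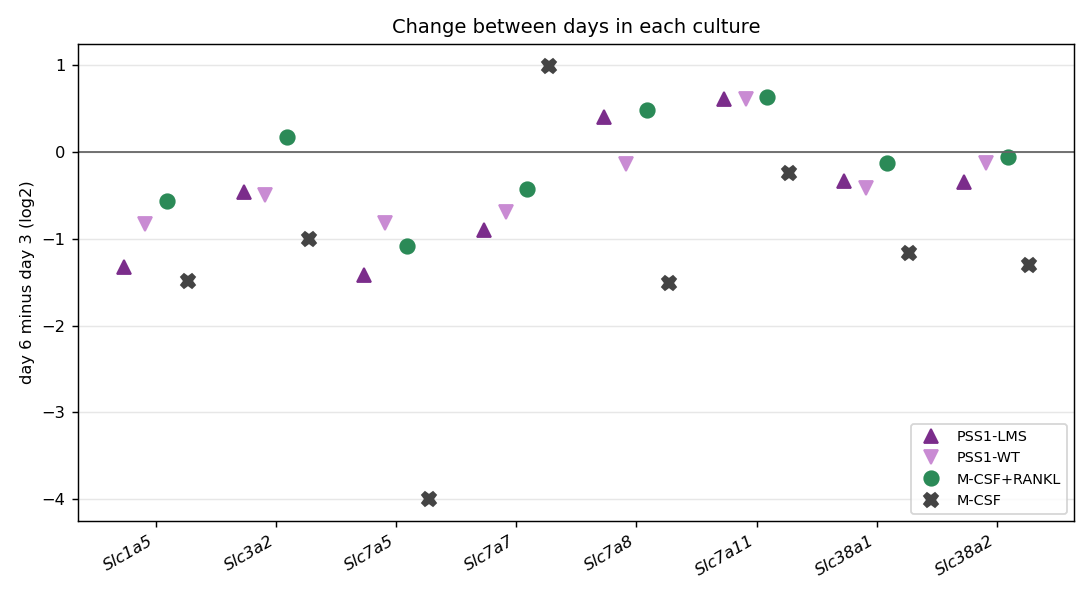
Log2 signal on day 6 minus day 3 for each transporter, 1 symbol per culture. The M-CSF symbol, from 1 pair of arrays, lies farthest below the 3 cultures with RANKL for Slc7a5 (-4.00, to a signal within background). It lies above them for Slc7a7 (0.99). Only Slc7a5, Slc7a8 and Slc7a7 passed the test of this difference.

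Within the 3 cultures with RANKL, Slc7a5 and Slc1a5 were lower on day 6 than on day 3. Slc7a5 fell by 1.10 ± 0.21 on the log2 scale (SE; adjusted p = 0.00745) and Slc1a5 fell by 0.91 ± 0.21 (SE; adjusted p = 0.0297), each lower in 3 of 3 cultures. These are 2 of 8 called lower and none higher, where 2.07% of measured genes were called lower and 1.31% higher. The Slc1a5 changes were -1.33 with PSS1-LMS, -0.83 with PSS1-WT and -0.57 with M-CSF+RANKL, and its call was lost without either PSS1-LMS array (-0.70, adjusted p = 0.222). Slc7a7 (-0.67, adjusted p = 0.0883) was also lower in 3 of 3 cultures and Slc7a11 (0.62, adjusted p = 0.108) higher in 3 of 3, and neither passed. Slc3a2 (-0.26), Slc38a1 (-0.29), Slc38a2 (-0.18) and Slc7a8 (0.25) differed least. Neutrophil markers such as S100a8 and Ngp moved with day as well. All 7 fell in the cultures with RANKL. Their summed signal was 7.32 to 7.63 on day 6, against 14.16 to 14.68 on day 3, on the log2 scale in these cultures, and 7.57 on day 6, against 14.10 on day 3, with M-CSF. Their part in the transporter changes was not tested.

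No transporter passed in any comparison between cultures with RANKL, and Slc7a8 came closest. The comparisons PSS1-LMS minus M-CSF+RANKL and PSS1-WT minus M-CSF+RANKL share the M-CSF+RANKL arrays, and each used the 6 arrays with RANKL. With PSS1-LMS, 0 of 8 were called, where 0.175% of measured genes were called in either direction; at an unadjusted p under 0.05 there was 1, Slc7a8, beside 6.57% of measured genes. With PSS1-WT, 0 of 8 were called, where 0.0092% of measured genes were, and 0 had an unadjusted p under 0.05, beside 6.86% of measured genes. Between PSS1-LMS and PSS1-WT limma called 0 of 8 and 0% of measured genes, with 773 genes (7.11%) at an unadjusted p under 0.05, Slc7a8 the one transporter among them.

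Slc7a8 was higher with PSS1-LMS than with PSS1-WT on both days, by 1.44 on day 6 and 0.90 on day 3. The averaged difference was 1.17 ± 0.26 (SE; 95% interval 0.62 to 1.71; adjusted p = 0.252), or 2.24-fold, the 17th highest of 10871. Against M-CSF+RANKL it was higher by 0.85 on day 6 and 0.92 on day 3 (average 0.89 ± 0.26, SE; 95% interval 0.34 to 1.43; adjusted p = 0.359). PSS1-WT minus M-CSF+RANKL was -0.28 ± 0.26 (SE; adjusted p = 0.855). The difference from PSS1-WT passed in 3 of 12 alternatives, each of which left a culture with 1 array. They left out an M-CSF+RANKL array of either day (1.17, the same fit) or the PSS1-WT array of day 3 (1.46).

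Macrophage markers were measured beside it, since Slc7a8 was high in the M-CSF cultures. With PSS1-LMS, 8 of 10 were above PSS1-WT on each day, by a median of 0.62 on day 6 and 0.47 on day 3. These counts include signals within background: Fcgr1 and Mertk were so on all 6 arrays with RANKL and C1qa on 4. None of the 10 passed, and the median of the fitted differences was 0.64, beside 0.04 over all measured genes. The summed macrophage signal was 16.47 on day 6 and 16.56 on day 3 with PSS1-LMS, against 16.48 and 16.77 with PSS1-WT. Nearly all of that sum was Csf1r, the marker of the 10 not called lower with RANKL, so it says little about the others. Csf1r was at 16.39 on day 6 and 16.52 on day 3 with PSS1-LMS, against 16.44 and 16.75 with PSS1-WT. The part of macrophage content in the Slc7a8 difference was not tested.

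Averaged over both days, the other 7 transporters differed by no more than 0.44 in these 3 comparisons. With PSS1-LMS, Slc1a5 was lower than M-CSF+RANKL by 0.82 on day 6 and by 0.06 on day 3, with an average of -0.44 (95% interval -0.996 to 0.12). Slc7a5 had its largest difference with PSS1-WT, at 0.44 above M-CSF+RANKL (95% interval -0.10 to 0.98). Slc7a11 was above M-CSF+RANKL by 0.40 with PSS1-LMS (95% interval -0.11 to 0.92) and by 0.30 with PSS1-WT (95% interval -0.22 to 0.81). The intervals of these 7 all included 0, and they leave room for differences of up to about 1 log2 unit.

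**Figure D4:**
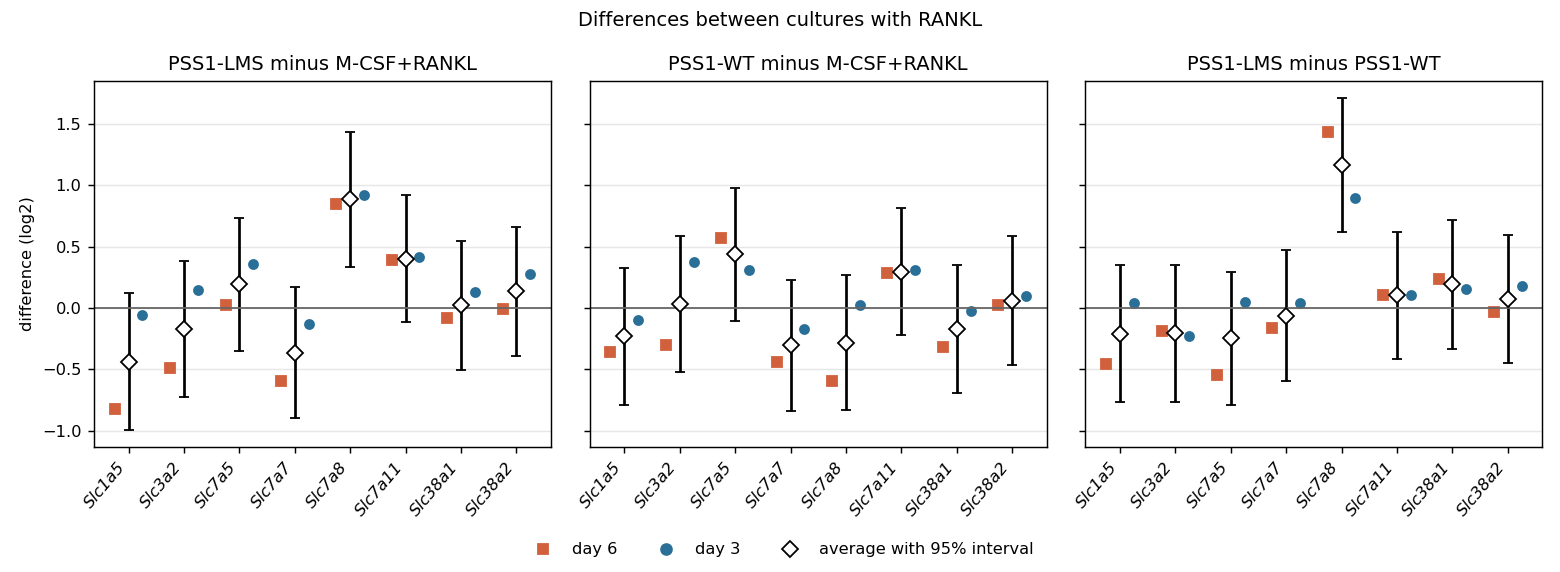
Log2 differences between cultures with RANKL for each transporter: squares for day 6, circles for day 3 and diamonds for the average with its 95% interval. Slc7a8 has the only intervals that lie clear of 0, at 0.89 for PSS1-LMS minus M-CSF+RANKL and 1.17 for PSS1-LMS minus PSS1-WT, and neither passed after adjustment.

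Other genes that move, use or sense amino acids were examined as lists. Their counts stand beside the share of all measured genes, which was 14.1% higher and 12.4% lower with RANKL, 9.49% higher and 12.8% lower in the comparison of day changes, and 1.31% higher and 2.07% lower between days with RANKL. Of 36 further transporters of the plasma membrane, 15 were measured, and with RANKL 3 rose and 1 fell. Their median difference was 0.54 as fitted, beside 0.03 for all measured genes. Setting signals within background to its limit touched 9 of the 15. The median gene was then within background on both sides. Its value of -0.87 is the gap between the limits of the M-CSF+RANKL and M-CSF arrays, not a change of a gene. Slc6a17, a neutral amino acid carrier known from neuronal vesicles, was higher by at least 2.38 on the log2 scale and Slc7a1, the main arginine importer CAT1, by at least 2.22. Both M-CSF signals of Slc6a17 and the one of Slc7a1 on day 6 were within background. Slc43a3, known as a carrier of purine bases, rose by 1.95 ± 0.34. Slc43a2, the branched-chain amino acid carrier LAT4, fell by 2.99 ± 0.48 on the log2 scale. Errors in these lists are SE.

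In lysosomes, which release amino acids from digested protein, 1 of 11 measured transporters rose and 2 fell (median -0.36). Slc15a3, a carrier of histidine and small peptides, changed by -6.76 ± 0.57 and Slc36a1, a carrier of small amino acids, by -3.68 ± 0.40, while Mfsd12, needed for cysteine import into lysosomes, rose by 3.83 ± 0.94. The difference depended on the day for many of them: 7 of 11 had a more negative change between days with RANKL than with M-CSF and 1 a more positive one, where 12.8% and 9.49% of measured genes did. Mfsd12 (-4.00), the nucleoside carrier Slc29a3 (-3.86), the cystine exporter Ctns (-3.59) and the sialic acid carrier Slc17a5 (-3.55) showed this most. In mitochondria 3 of 10 measured carriers rose and none fell (median 0.73): Slc25a39, known for glutathione import (2.71 ± 0.64), Slc25a13, the aspartate and glutamate exchanger (at least 4.49-fold), and the serine carrier Sfxn1 (1.65 ± 0.47).

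Enzymes that use these amino acids were mostly higher with RANKL. Of 10 enzymes of glutamine, glutamate and asparagine 6 rose and none fell (median 1.59). In the model with a RANKL by day term 9 were higher for day 6 and 7 for day 3, where 21.6% and 22.5% of measured genes were. Among the 6 were Asns, which makes asparagine from glutamine (3.87 ± 0.32), Gfpt1, the entry to hexosamine synthesis (2.68 ± 0.28), Got1, the cytosolic aspartate aminotransferase (2.43 ± 0.35), and Aldh18a1 of proline synthesis (at least 2.60-fold). The calls of Bcat1, Cad, Gpt2 and Ppat for day 6 rested on M-CSF signals within background. With such signals set to the limit, these genes were not higher on day 6. Bcat1 was within background on all 8 arrays and Cad on 6. Of 18 cytosolic tRNA synthetases, which load amino acids onto tRNA, 12 rose and none fell (median 1.36), and 16 were higher for day 6 and 13 for day 3 in the model by day. Iars (2.72 ± 0.31), Gars (2.47 ± 0.44), Mars1 (at least 3.52-fold) and Yars (1.86 ± 0.45), for isoleucine, glycine, methionine and tyrosine, had the largest differences.

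Of 16 measured genes of Atf4 and its targets, 4 rose with RANKL and none fell: Asns, the folate enzymes Mthfd2 (at least 4.73-fold) and Shmt2 (1.93 ± 0.39), and Atf4 itself (2.01 ± 0.31). The median was 0.42 as fitted and -0.18 with signals within background set to its limit. In the model by day 4 were higher and 4 lower for day 6, against 7 higher and 0 lower for day 3. Of the 4 lower for day 6, Sesn2 and Trib3 were within background on all 8 arrays and Atf5 on 7, and only Cebpg lay above it throughout. The 7 higher for day 3 included Chac1, within background on all 8 arrays. Between days in the cultures with RANKL, 8 of the 16 fell and none rose. The median of the 16 was -0.63 as fitted, beside -0.03 for all measured genes, and -0.19 with signals within background set to its limit. Phgdh, the first enzyme of serine synthesis, was at least 2.26-fold lower on day 6, where it was within background. Asns had a difference of -2.06 ± 0.21, Psat1 of the same serine pathway of -1.84 ± 0.23 and Nupr1 of -1.35 ± 0.20. Slc7a5 and Slc1a5 fell in that same comparison, as did the cationic carrier Slc7a1 (-1.18) and the glycine carrier Slc6a9 (-0.99). Slc7a3 passed too but was within background on 7 arrays. The tRNA synthetases Cars (-1.02), Wars (-0.91) and Gars (-0.81) and Aldh18a1 (-1.72) were also lower on day 6, as was Mfsd12 (-0.86). Chac1 passed while within background on all 8 arrays.

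Genes around cystine and glutathione went both ways. Of 15 measured genes of glutathione synthesis and Nrf2 targets 2 rose and 6 fell with RANKL (median -0.76). With signals within background set to its limit, the median was -0.87. That value belongs to genes within background on both sides and is the gap between the limits of the arrays. Hmox1, heme oxygenase, changed by -4.40 ± 0.30, Gclm, the modifier subunit of the first glutathione enzyme, by -2.49 ± 0.32. Ggt5 passed as lower with a signal above background on the M-CSF array of day 6 alone. Gss, which completes glutathione, rose by 2.64 ± 0.29. In the comparison of day changes, Txnrd1 (2.16), Gclc (1.88) and Gsr (1.34) passed with positive differences and Ggt5 with a negative one.

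In mTORC1 amino acid sensing 2 of 30 measured genes rose and 4 fell, where 14.1% and 12.4% of all measured genes did, with a median of 0.03 as fitted and -0.13 with signals within background set to its limit. Sesn1, of the sestrin family that senses leucine, changed by -3.99 ± 0.66 and Fnip2, a partner of folliculin, by -1.75 ± 0.40. Sesn3 was among the 4 while within background on all 8 arrays. The translation repressor Eif4ebp1 rose by 2.78 ± 0.37. The Rag GTPase Rragd was at least 1.98-fold higher, with both M-CSF signals within background. On day 6 of the RANKL cultures Rragd was higher than on day 3 (0.80), and Eif4ebp1 (-0.94) was lower, as was Sesn2, which was within background throughout. Of 3 measured genes of arginine and tryptophan use none passed with RANKL. Odc1, which makes polyamines from ornithine, was one of 2 with a positive difference of day changes (2.90, adjusted p = 0.000201); the other was Arg1, within background on all 8 arrays. No gene of these 9 lists passed in a comparison between cultures with RANKL.

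Day also set apart RANKL effects in other lists. Among the further plasma membrane transporters 3 had a positive and 3 a negative difference of day changes. Slc38a6 (-3.56), Slc6a6 (-1.78) and Slc43a2 (-1.72) were negative. Slc16a10 (1.81), Slc7a6 (at least 0.77) and Slc7a1 (at least 0.61) were positive, the last 2 with an M-CSF signal of day 6 within background. Slc7a6 encodes y+LAT2, a CD98 partner close to Slc7a7, and its difference had the sign of Slc7a5 and not of Slc7a7. Among synthetases 6 were positive and 1 negative, with Tars (2.24), Mars1 (at least 1.71), Rars (1.99) and Qars (-1.61) farthest from 0. In the Atf4 list Mthfd2 (at least 2.09) was positive and 4 were negative, of which Phgdh, Atf5 and Sesn2 were within background on both M-CSF arrays and on at least 3 with RANKL, and Nupr1 (-1.48) on none. Among mTORC1 genes 1 was positive and 7 negative, including Flcn, folliculin (-3.32), Sesn1 (-2.45) and Tsc1 (-1.71). Mitochondrial carriers were 2 positive, Sfxn1 (1.71) and Slc25a13, within background on the M-CSF array of day 6, and 2 negative, Slc25a39 (-2.50) and Slc25a44 (-1.32), and the glutamine list held Bcat2 (-2.73) and, with a positive difference, Ppat, within background on the M-CSF array of day 6.

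**Figure D5:**
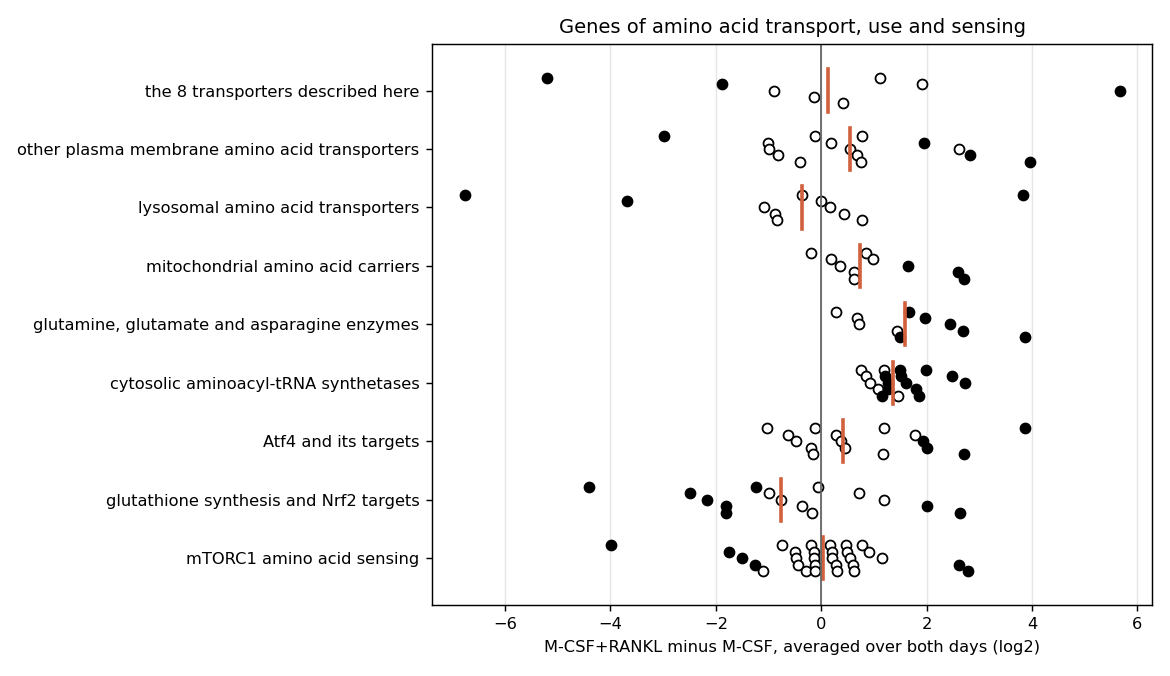
Log2 difference of M-CSF+RANKL minus M-CSF averaged over both days for each measured gene of 9 groups, filled where the adjusted p is under 0.05, with a bar at each group's median and signals within background drawn as deposited. The glutamine enzymes (median 1.59) and tRNA synthetases (1.36) lie to the right of 0, and the 8 transporters spread from -5.20 to 5.66.

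For each transporter, the 3 measured genes with the most similar profile over the 8 arrays were found by the root mean square distance between profiles centred on their own mean, in log2 units. Slc1a5 was nearest to Met, the receptor of hepatocyte growth factor (0.313), Klra17 (0.314) and the anion exchanger Slc4a2 (0.404), each within background on 2 arrays. Slc7a5 lay nearest to Mthfd2 (0.348), an Atf4 target in the list above, then Spint1 (0.363) and Dctd (0.478). Slc7a8 was nearest to Gcnt1 (0.417), the chemokine gene Ccl3 (0.443) and Milr1 (0.482). The profile of Slc7a7 was closest to the choline carrier gene Slc44a2 (0.193), Mapkapk3 (0.208) and the lysosomal regulator Tfe3 (0.212). Slc3a2 was closest to Rnf26 (0.139), Zfp618 (0.157) and Dpy19l1 (0.166), Slc38a1 to Lsm6 (0.0581), the proteasome subunit Psmd1 (0.0949) and Magt1 (0.105), and Slc38a2 to Zfp146 (0.0825), Trmt5 (0.104) and Hgh1 (0.107). Those of Slc7a11 were Apbb3 (0.108), Dab1 (0.110) and Uspl1 (0.127), of which Apbb3 and Dab1 were within background on all 8 arrays, as were Zfp618 and Hgh1. Profiles that vary little have many near neighbours, so a small distance says less for Slc38a1 and Slc7a11, whose signals spanned 1.19 and 1.02, than for Slc1a5 and Slc7a8, which spanned 6.69 and 6.31.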

How the data were processed

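RNA of mouse bone marrow cultures was labelled from 500 ng of total RNA and hybridised to Affymetrix arrays, per the labels' protocols, 1 array for each of 8 groups. The authors deposited 28846 features as log2 signals. Summarisation and normalization are not given in the sources used here. The log2 scale was inferred from the range, 1.25 to a ceiling of 19.93, and no further scaling was applied.

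GEO's platform annotation gave 1 gene symbol to 19572 features and none to 9274. For the 55 genes with several features, the one with the highest mean was used. Measured genes were those whose highest value reached 4.86. Differences were fitted with limma 3.58.1 (lmFit and eBayes) in R 4.3.3, with Benjamini-Hochberg adjustment over 10871 genes. The RANKL effect used all 8 arrays with culture and day as terms (3 residual degrees of freedom, plus 4.71 shared over genes). The PSS1 and day comparisons used the 6 arrays with RANKL (2, plus 13.3). The comparison of day changes added a RANKL by day term to all 8 arrays (2, plus 13.3). A p-value thus rests largely on spread shared by all genes. Where 1 side lay within background, a fold was taken from the brightest background probe set of that array and is written "at least".

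The members and lists were chosen with earlier results of these data known. List genes were named by a fixed rule: with the largest absolute difference, at most 4 per list among those that passed in a comparison. A few more were named in the comparison of day changes. The number of arrays limits the precision. Each fitting step was tested on simulated data. Alternatives were array medians subtracted, quantile normalization, no filter, a filter on background, an intensity trend, other sets of arrays and leaving out each array. Some of these are the same fit, and the tallies count them separately. Each estimate by day equals the fit without the M-CSF array of the other day. For the RANKL effect, leaving out either array of a PSS1 culture gave the same fit. For the day comparisons, either array of any culture with RANKL did.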

Additional observations from a re-analysis of the deposited data

Results flagged for a closer look

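The change between days differed between the cultures with RANKL and the M-CSF culture for 3 transporters, by the test of the difference itself. It was 2.89 (log2) for Slc7a5, 1.76 for Slc7a8 and -1.66 for Slc7a7, each taken as day 6 minus day 3 with RANKL minus the same in M-CSF. The M-CSF side is a single pair of arrays, and the Slc7a5 signal on its day 6 array was within background, so that from the background limit the Slc7a5 difference was at least 1.98. With 1 array per group, no array could be set against others of its own group.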

How the results depend on the processing

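Of the 8 transporters, 3 passed with RANKL. The count was 6 with the mean of the 3 RANKL cultures and 6 for day 6 with a RANKL by day term, and it ran from 2 to 6 when single arrays were left out, with 6 without the M-CSF array of day 3 and 2 without either M-CSF+RANKL array. For the day comparison, 2 passed, against 1 after quantile normalization, 1 without a filter, 0 with all 8 arrays, and 1 to 3 with single arrays left out. For PSS1-LMS minus PSS1-WT, 0 passed, and 0 to 1 with single arrays left out. The 3 calls on day changes held throughout.

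Signs turned only for differences that had not passed. Slc7a11 with RANKL (-0.15) was 0.087 with the mean of the 3 cultures, 0.28 for day 6 with that term and -0.58 to 0.28 with single arrays left out. Slc38a1 with RANKL (0.42) was -0.016 for day 3 with that term and -0.016 to 0.85 with single arrays left out. Slc7a8 between days (0.25) was -0.19 with all 8 arrays. Slc3a2 with PSS1-WT (0.03) was -0.014 with array medians subtracted. Leaving out single arrays gave -0.29 to 0.36 for Slc3a2, -0.030 to 0.15 for Slc38a2, -0.49 to 0.027 for Slc1a5 and -0.57 to 0.0093 for Slc7a8 in PSS1-WT minus M-CSF+RANKL. It gave -0.10 to 0.15 for Slc38a1, -0.038 to 0.43 for Slc7a5 and -0.50 to 0.16 for Slc3a2 in PSS1-LMS minus M-CSF+RANKL. For PSS1-LMS minus PSS1-WT it gave -0.051 to 0.20 for Slc38a2, -0.52 to 0.11 for Slc1a5 and -0.23 to 0.11 for Slc7a7. Over all single results and alternatives, 559 kept sign and side of the threshold, 21 passed newly, 8 lost the call and 20 turned sign. The cause was not tested.

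Counts over all genes moved as well. With RANKL 2875 passed, against 4515 for day 3 and 4545 for day 6 with that term, and 1198 to 4545 with single arrays left out. For PSS1-LMS 19 passed, against 1 with array medians subtracted, 1 after quantile normalization, 2 without a filter, 37 above background, 43 with an intensity trend, 1 with all 8 arrays and 11 to 83 with single arrays left out. For PSS1-WT 1 passed, against 2 above background, 2 with the trend and 3 to 61 with single arrays left out. PSS1-LMS minus PSS1-WT gave 0, against 8 above background, 7 with the trend and 0 to 48 with single arrays left out. Between days 367 passed, against 230 without a filter, 31 with all 8 arrays and 270 to 678 with single arrays left out. Subtracting array medians moved the median of all genes in the comparison of day changes to -0.15, against -0.03 as deposited.

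No paired analysis was possible because each group held 1 array and no replicate numbers, other than through culture and day as terms, which set the day 6 and day 3 arrays of a culture against each other in every fit. The comparison of day changes had no fit without an M-CSF array. Signals near background, such as those of Slc7a11 (6.74 to 7.76), limit how small a change is seen.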
